A study of Drosophila melanogaster with 20 samples.

Results

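In these eye imaginal discs some transcripts differed between fly lines that carried the same form of proinsulin. Described here are 10 such genes: vis, tut, acs, Mrp4, CG17109, l(2)34Fc, CG8319, CG33307, CG7607 and CG42565. They were chosen by gene symbol because their array intensities stepped or graded from line to line over all 20 arrays, so their levels by line are given as a description with no test. All 10 were among the 10262 probe sets tested, of 18769 on the array without controls, and 8009 of the tested probe sets carried a gene name. The arrays measured RNA of discs, the larval epithelium that becomes the adult eye, from third-instar Drosophila larvae of 5 lines. Human proinsulin was driven by GMR-GAL4. In the eye disc this driver makes the yeast activator GAL4 in cells that the morphogenetic furrow has passed. There GAL4 switches on a transgene with UAS sites. WT-6 and WT-24 carried wild-type proinsulin (UAS-hINSWT), Mut-101 and Mut-1 carried the C96Y form (UAS-hINSC96Y), and flies were hemizygous for the transgene. The labels give the GMR-GAL4 driver for the non-transgenic larvae as well, so it was common to all 5 lines. Each line had 2 arrays from males and 2 from females, called biological replicates in the labels. The transgene itself was not analysed here, and a difference between lines cannot be told apart from one in the dose of the transgene, in its insertion site or in the rest of the genome of that stock.

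The genes have unlike roles. The gene vis encodes a homeodomain protein of the TALE class, related to vertebrate TGIF, and acts with its tandem copy achi in the transcription of spermatocyte genes. The gene tut encodes an RNA-binding protein that works with Bam and Bgcn in germ cells of the testis. The gene acs, also called arcus, encodes a member of the SLC36 family of amino acid transporters, and Mrp4 encodes an ABC transporter of the C subfamily, whose members export conjugated compounds. CG17109 encodes an aminoacylase-like peptidase, and l(2)34Fc a protein with a reeler domain. No role is given here for CG8319, CG33307, CG7607 and CG42565. Larvae of a fly stock share a genetic background, and separately made insertion lines can differ in it as well as in the place of the transgene.

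Values are linear intensities on the scale of the deposited table, and differences are log2 differences. Array means lay between 1199 and 1255 units, and Pearson correlations between the 2 arrays of a line and sex were 0.978 to 0.993. All 13 eye disc markers were among the tested probe sets, and their summed intensity lay between 51009 and 59258 units on all arrays. Of the 13, 4 were called between lines (limma): the neuronal gene elav (4703 units in Non-transgenic discs and 3745 in Mut-1), so and gl, which were lowest in Mut-1, and ro, which was lowest in Non-transgenic discs. Their part in the low levels of vis and acs in Mut-1 was not tested. Fat body markers, with 4 of 8 genes tested, summed to 34040 units on Non-transgenic male replicate 2 and to 22433 on WT-24 female replicate 1, against 498 to 7871 on the other arrays. Salivary gland markers, with 6 of 8 genes tested, summed to 4171 to 33142 units, and none was called between lines. Of 7 tested brain and glia markers 3 were called, moody, lowest in WT-6, and dpn and nerfin-1, lowest in Mut-1. The part of these tissues in the levels of the 10 genes was not tested. Whole discs were measured, so fewer cells of a type and less RNA per cell cannot be told apart. Intensity depends on the probes, so no level is set against that of another gene. Of all tested probe sets, 14.9% differed between the 5 lines (limma moderated F test, Benjamini-Hochberg adjusted p under 0.05). This set includes all 10 genes, which the choice of the genes fixes. The median tested probe set had 28.4% of its variance between lines, and the 10 genes had 66.9% to 91.1%.

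**Figure D1:**
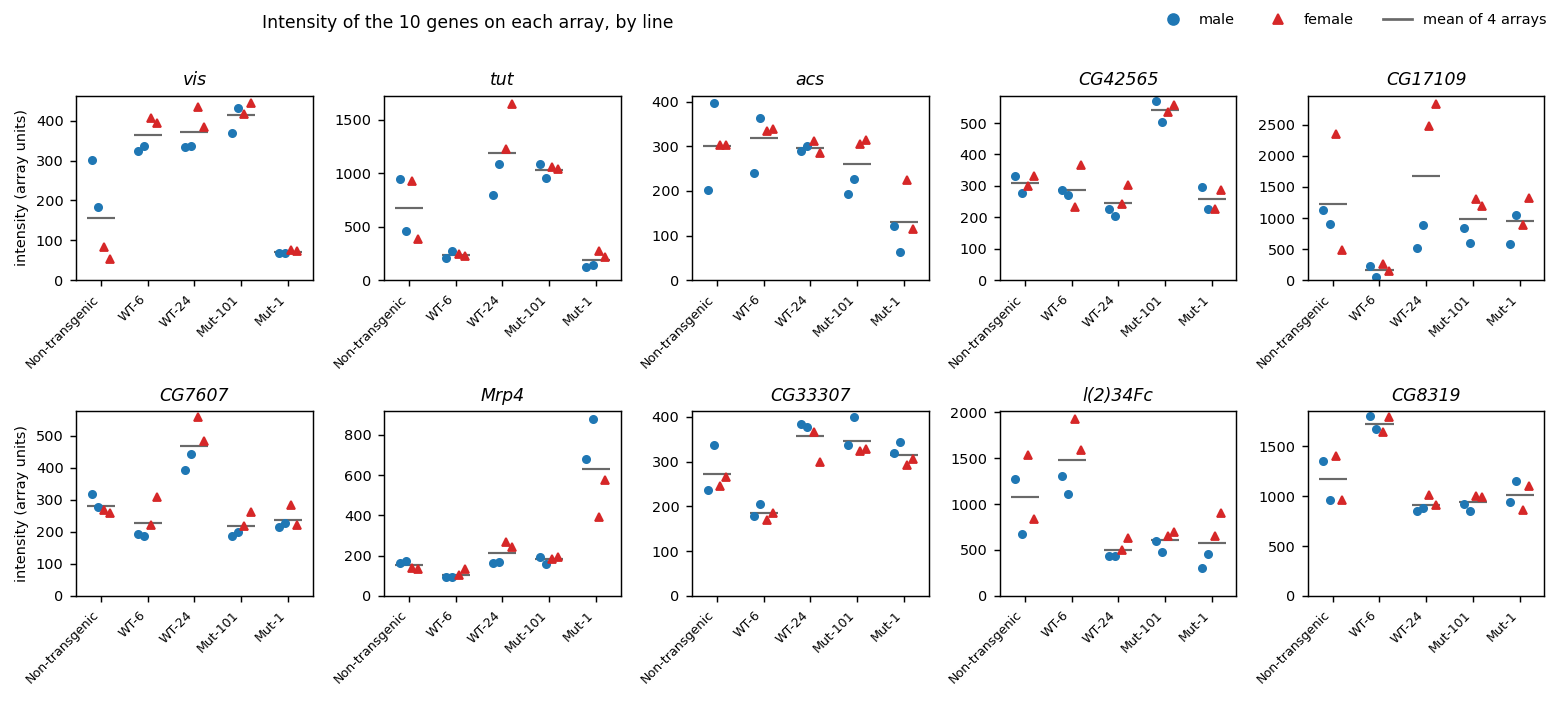
Intensity (array units, linear axis from 0) of the 10 genes on each of the 20 arrays, by line. Circles are males, triangles are females, and the grey line is the mean of the 4 arrays. The 4 Mut-1 arrays of vis lie between 67.2 and 74.6 units, while those of Mut-101 lie between 369 and 444.

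The homeobox gene vis had a high level in WT-6, WT-24 and Mut-101 and a low level in Mut-1, so that the 2 lines with the same C96Y transgene stood at opposite ends. In WT-6 the male arrays read 324 and 337 units and the female arrays 406 and 394. In WT-24 they read 333 and 337 in males and 433 and 385 in females, and in Mut-101 369 and 433 in males and 416 and 444 in females. These 3 lines overlapped. In Mut-1 all arrays were low, at 67.3 and 67.2 units in males and 74.6 and 72.3 in females. Mut-101 was 5.89-fold above Mut-1, a log2 difference of 2.56 ± 0.149 (SE). Since the Mut-1 level lies under 158 units, the lowest geometric mean of any tested probe set, and no detection call was used, this fold is approximate, and the log2 difference was 1.95 when 50 units were added to every value. Non-transgenic discs were mixed. Their male arrays read 301 and 183 units and their female arrays 84.3 and 54.0, a spread of 156 ± 112 (SD, n = 4) that overlapped Mut-1 and stayed below the other 3 lines. Another probe set, listed for both achi and vis, lay between 798 and 1032 units on all arrays and did not show the step, with line means of 842 in WT-6 and 963 in Mut-1.

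The germ-cell regulator tut was high in WT-24 and Mut-101 and low in WT-6 and Mut-1, and thus split the lines of both transgenes. In WT-24 the arrays read 799 and 1092 units in males and 1231 and 1651 in females. In Mut-101 they read 1086 and 956 in males and 1063 and 1039 in females. WT-6 gave 211 and 274 units in males and 244 and 228 in females, and Mut-1 gave 121 and 146 in males and 270 and 219 in females. Neither low line overlapped either high line, while the 2 low lines overlapped each other, as did the 2 high lines. WT-24 was 4.85-fold above WT-6 (log2 2.28 ± 0.260, SE) and Mut-101 was 5.75-fold above Mut-1 (2.52 ± 0.260). Non-transgenic arrays read 944 and 457 units in males and 931 and 384 in females. They lay above both low lines, below Mut-101 and in part within the range of WT-24.

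Genes related to vis and tut had median log2 ranges of line means somewhat above that of all tested probe sets (0.18). The median was 0.23 for the Bam and Tut list, 0.28 for TALE homeobox genes and 0.21 for testis meiotic arrest genes. Of all tested probe sets 14.9% were called between lines. Of 7 tested genes linked to Bam and Tut function, bam, bgcn, mei-P26, Rbfox1, pum, brat and twin, none was called between lines (limma, adjusted p 0.0515 to 0.879), and 3 had an unadjusted p under 0.05. The smallest p-values were those of the deadenylase gene twin (log2 range of line means 0.23, adjusted p = 0.0515), Rbfox1 (0.22, 0.0571), bgcn (0.33, 0.0675) and brat (0.26, 0.368). Among 4 tested TALE homeobox genes other than vis, achi was called (adjusted p = 0.0320). It ranged 1.28-fold, from a mean of 792 units in WT-6 (705 to 866) to one of 1012 in Mut-101 (903 to 1113). The Iroquois genes ara (log2 range 0.35, adjusted p = 0.0591), caup (0.21, 0.152) and mirr (0.19, 0.598) were not called. In the list of testis meiotic arrest genes, to which achi also belongs, only 4 of 11 genes were tested. Of these mip40 (0.13, adjusted p = 0.177), tomb (0.28, 0.449) and mia (0.13, 0.771) were not called. Over the 5 germ-line and gonad markers tested, 1 was called, esg, with a log2 range of 0.19. The summed level of these markers lay between 3667 and 5017 units on all arrays.

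The transporter genes acs and Mrp4 set Mut-1 apart in opposite directions. For Mrp4 the Mut-1 arrays were the highest, at 679 and 878 units in males and 393 and 578 in females. All 4 were above the 16 others, of which the highest read 268. WT-6 was the lowest line, with 93.2 and 93.8 units in males and 103 and 134 in females, and was below all others. WT-24 stood 1.98-fold above WT-6 (log2 0.99 ± 0.128, SE), with 165 and 171 units in males and 268 and 244 in females, and Mut-1 3.31-fold above Mut-101 (1.73 ± 0.128). Mut-101 lay between 161 and 195 units and Non-transgenic discs between 136 and 175, ranges that overlapped each other and that of WT-24. With 50 units added to every value the difference between the wild-type lines was 0.74, and the value of Mut-101 minus Mut-1 was -1.50.

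The amino acid transporter gene acs was lowest in Mut-1, at 121 and 62.8 units in males and 224 and 116 in females. Those arrays lay below all of WT-6 (241 to 363 units) and of WT-24 (284 to 311). The highest Mut-1 array, a female, reached into the range of Mut-101 (194 to 315) and of Non-transgenic discs (202 to 397). Mut-101 was 2.16-fold above Mut-1 (log2 1.11 ± 0.251, SE) and the wild-type lines were 0.09 apart. With 50 units added to every value the log2 difference of Mut-101 minus Mut-1 was 0.83. The line means put both C96Y lines lowest, with 131 units in Mut-1 and 260 in Mut-101 against 296 to 319 in the other lines. Of all the genes described, acs had the smallest share of variance between lines, 66.9%.

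Other ABC transporters of the C subfamily were compared with Mrp4. Of 9 tested, 2 were called between lines (limma), beside 14.9% of all tested probe sets, and both were highest in Mut-1. CG31793 averaged 939 ± 60.6 units in Mut-1 against 606 ± 31.7 in WT-6 (SD, n = 4 each, adjusted p = 0.000108). The level of rdog was 877 ± 35.2 in Mut-1 and 609 ± 54.6 in WT-24 (adjusted p = 0.000114). No Mut-1 array of either gene overlapped an array of another line. Of all tested probe sets, 3.27% had the Mut-1 arrays all above or all below the 16 others. Cftr (log2 range 0.34, adjusted p = 0.155) and CG7627 (0.28, 0.159) were not called, and MRP had a range of 0.03 (adjusted p = 0.980). Over all 20 arrays CG31793 was also the named gene whose log2 intensity was most like that of Mrp4 (Pearson 0.92), followed by the phosphatase gene Ptpmeg (0.92).

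**Figure D2:**
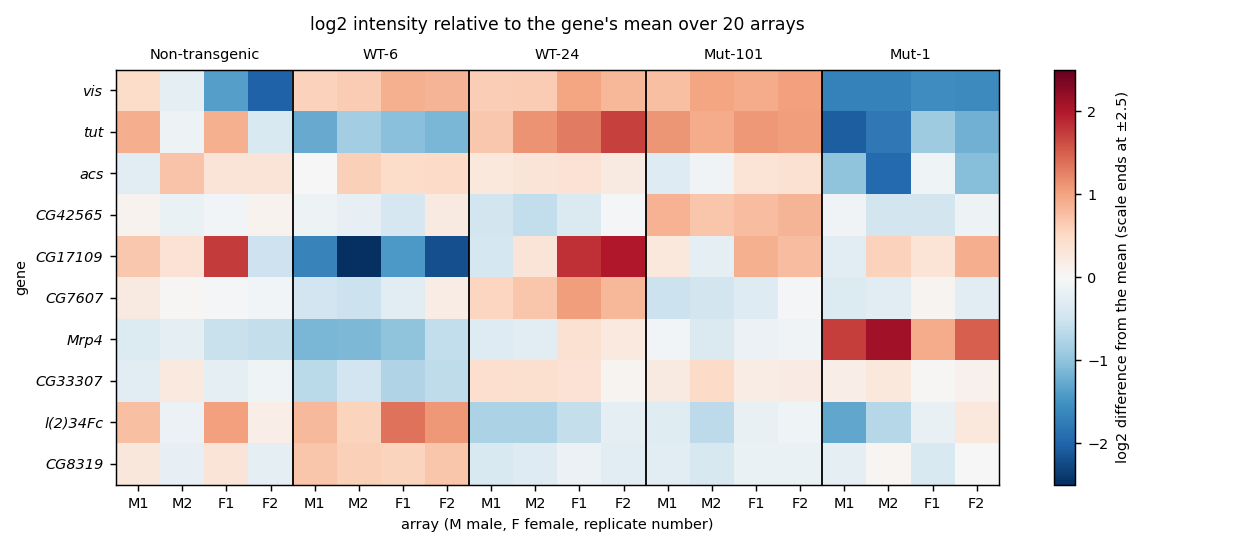
log2 intensity of each gene on each array, relative to the gene's own mean over 20 arrays, with arrays in columns by line, sex and replicate number. Red is above and blue below the mean, and colours end at ±2.5, which the lowest WT-6 array of CG17109 exceeds. The WT-6 block is blue for CG17109, CG33307 and tut and red for l(2)34Fc and CG8319.

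CG17109, CG33307, l(2)34Fc and CG8319 set WT-6 apart from the other wild-type line. For CG17109 the WT-6 arrays read 221 and 47.8 units in males and 260 and 154 in females, below all 16 others. WT-24 read 518 and 882 in males and 2485 and 2831 in females, and was 9.33-fold above WT-6 (log2 3.22 ± 0.491, SE). With 50 units added to every value this log2 difference was 2.79. The C96Y lines overlapped, with 847 and 597 units in Mut-101 males, 1304 and 1199 in Mut-101 females, 581 and 1048 in Mut-1 males and 887 and 1325 in Mut-1 females. Non-transgenic arrays read 1123 and 901 in males and 2358 and 491 in females. Spread between arrays of a line and sex was large for this gene, with a residual SD of 0.79 on the log2 scale, above that of 99.0% of tested probe sets. Of 4 other aminoacylase-like genes only CG6726, the next gene on the chromosome, was tested. Its line means ranged from 1122 ± 65.7 units in WT-6 to 1269 ± 80.3 in Non-transgenic discs (SD, n = 4 each, limma adjusted p = 0.0749), and its log2 intensity correlated with that of CG17109 at 0.72 over 20 arrays.

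The reeler gene l(2)34Fc was highest in WT-6, with 1304 and 1106 units in males and 1927 and 1588 in females. WT-24 gave 430 and 435 in males and 497 and 632 in females, Mut-101 603 and 475 in males and 655 and 693 in females, and Mut-1 304 and 457 in males and 658 and 898 in females. WT-6 overlapped none of these 3 transgenic lines, which overlapped each other, and stood 2.94-fold above WT-24 (log2 1.56 ± 0.223, SE). Non-transgenic arrays read 1268 and 673 units in males and 1529 and 835 in females.

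CG8319 was likewise highest in WT-6. That line read 1802 and 1672 units in males and 1639 and 1792 in females, above all 16 others. The other transgenic lines lay together between 848 and 1151 units. Non-transgenic discs gave 1354 and 962 in males and 1398 and 958 in females, so that the higher array of each sex was between the levels of WT-6 and of the other lines. WT-6 was 1.89-fold above WT-24 (log2 0.92 ± 0.129, SE). The log2 intensities of CG8319 and l(2)34Fc correlated at 0.83 over 20 arrays, the highest value among the 45 pairs of the 10 genes. As the 20 points are 5 lines with 4 arrays each, such correlations mostly restate the order of the lines.

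CG33307 was the mirror of CG8319, at -0.91 over 20 arrays. Its WT-6 arrays read 170 to 205 units and lay below all others. WT-24 (299 to 384), Mut-101 (324 to 401), Mut-1 (293 to 343) and Non-transgenic discs (237 to 337) all overlapped each other. WT-24 stood 1.93-fold above WT-6 (log2 0.95 ± 0.109, SE).

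Named genes with the most similar pattern to l(2)34Fc and CG8319 included genes of blood cells. NimC1, which encodes a phagocytosis receptor of plasmatocytes, was the second most similar to both (Pearson 0.87 and 0.91 over 20 arrays), after CG9427 for l(2)34Fc (0.88) and the thioester protein gene Tep3 for CG8319 (0.94). NimC1 read 1032 and 748 units in WT-6 males and 1276 and 1112 in WT-6 females. In WT-24, Mut-101 and Mut-1 it lay between 151 and 320 units on every array, and in Non-transgenic discs it was 368 and 358 in males and 1050 and 278 in females. Of 10 haemocyte markers tested, NimC1 alone was called between lines (limma). Pxn, not called (adjusted p = 0.495), averaged 3464 units in WT-6, 3395 in Non-transgenic discs, 3200 in Mut-1, 3036 in Mut-101 and 2804 in WT-24, the order of CG8319, and He, vkg, eater and srp, also highest in WT-6 by mean log2 intensity, were not called either. Hml, a further plasmatocyte marker, read 1119 to 1743 units in WT-6 and 632 to 2693 over all arrays. By mean log2 intensity Hml and Sr-CI were highest in Mut-101, Col4a1 in Mut-1 and crq in WT-24. None of these was called (limma adjusted p 0.154 to 0.774). Summed haemocyte markers lay between 21195 and 25521 units in WT-6, between 16968 and 24449 in WT-24, between 21305 and 23276 in Mut-101, between 20740 and 25555 in Mut-1 and between 16636 and 28164 in Non-transgenic discs. The part of haemocyte number in the levels of l(2)34Fc and CG8319 was not tested.

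CG7607 and CG42565 each had 1 high line. CG7607 was highest in WT-24, with 393 and 442 units in males and 558 and 484 in females, above the 16 others. The other lines overlapped between 187 and 319 units, and WT-24 was 2.08-fold above WT-6 (log2 1.06 ± 0.114, SE). CG42565 was highest in Mut-101, at 569 and 503 units in males and 534 and 559 in females, also above all others. The other 4 lines lay between 204 and 366, and Mut-101 was 2.10-fold above Mut-1 (1.07 ± 0.143). Another probe set for CG42565 alone was dim on every array, with a highest value of 28.3 units, and one shared with CG13511 read 87.9 to 282 units with line means of 161 in Mut-101 and 188 in Non-transgenic discs, so the high level in Mut-101 was seen with 1 of 3 probe sets.

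Across the 10 genes, 7 had arrays of WT-24 and WT-6 that did not overlap, tut, CG17109, CG7607, Mrp4, CG33307, l(2)34Fc and CG8319, where 4.58% of tested probe sets did so. The same 7 were among the 98 probe sets that limma called between the 2 wild-type lines, 0.955% of those tested. Mut-101 and Mut-1 did not overlap for 4 genes, vis, tut, CG42565 and Mrp4, against 9.09% of probe sets, and limma also called acs, where 3.49% were called. Since these contrasts chose the genes, nothing is read from these counts. Only tut and Mrp4 did not overlap in both pairs. The counts of 7 and 4 genes without overlap were the same with arrays centred on their medians and with quantile normalization. A line whose 4 arrays were all above or all below the 16 others was found for 6 genes, while 4.28% of probe sets had such a line. WT-6 was so placed for CG17109, Mrp4, CG33307 and CG8319 (0.351% of probe sets), WT-24 for CG7607 (0.341%), Mut-101 for CG42565 (0.322%) and Mut-1 for Mrp4 (3.27%). Non-transgenic discs were so placed for 0 of the 10 genes (0.039%).

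Sex was not used to choose the genes and could be tested. Of the 10 genes 1 was called, l(2)34Fc, which was lower in males, while 12.3% of all tested probe sets were called in either direction 4.56% were lower and 7.76% higher in males. The male arrays of l(2)34Fc averaged 706 ± 376 units and the female arrays 991 ± 499 (SD, n = 10 each). The log2 difference was -0.52 ± 0.141 (SE, limma adjusted p = 0.0318) and was negative in 5 of 5 lines, from -0.29 in Non-transgenic discs to -1.04 in Mut-1. The call was not stable. It ended without any of 12 of the 20 arrays (Non-transgenic male 2 and female 1, WT-6 male 2 and both females, both males and female 2 of WT-24, Mut-101 male 2 and female 2, and Mut-1 male 1 and female 2), and without WT-6, WT-24, Mut-101 or Mut-1, with log2 differences of -0.38 to -0.56. With a block on the number in the sample descriptions it ended too (-0.52, limma adjusted p = 0.0933).

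CG17109 had a larger sex difference that was not called, at -0.86 ± 0.311 (SE, limma adjusted p = 0.0854), and was lower in males in 5 of 5 lines. It was called without Non-transgenic female replicate 2 (-1.09, adjusted p = 0.0256), without WT-6 male replicate 1 (-1.08, adjusted p = 0.0250) and without Non-transgenic discs (-1.05, adjusted p = 0.0363). Its largest difference, -1.97, was in WT-24, whose male arrays read 518 and 882 units and female arrays 2485 and 2831. CG7607 stood at -0.22 ± 0.0722 (adjusted p = 0.0649) with 4 of 5 lines lower in males, and it was called with arrays centred on their medians (-0.32, adjusted p = 0.0311), with quantile normalization (-0.31, adjusted p = 0.0348), without WT-6 female replicate 1 (-0.27, adjusted p = 0.0203), without Mut-1 female replicate 2 (-0.25, adjusted p = 0.0453) and without Non-transgenic discs (-0.32, adjusted p = 0.0338). The other genes ranged from -0.35 for acs to 0.20 for vis, with adjusted p between 0.156 and 0.957. CG33307 was higher in males in 5 of 5 lines by 0.12 to 0.20, with a mean of 0.16 ± 0.0690 (limma adjusted p = 0.156), and was called without Non-transgenic male replicate 1 (0.21, adjusted p = 0.0393). The difference of tut was called without Non-transgenic discs (-0.37, adjusted p = 0.0311).

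**Figure D3:**
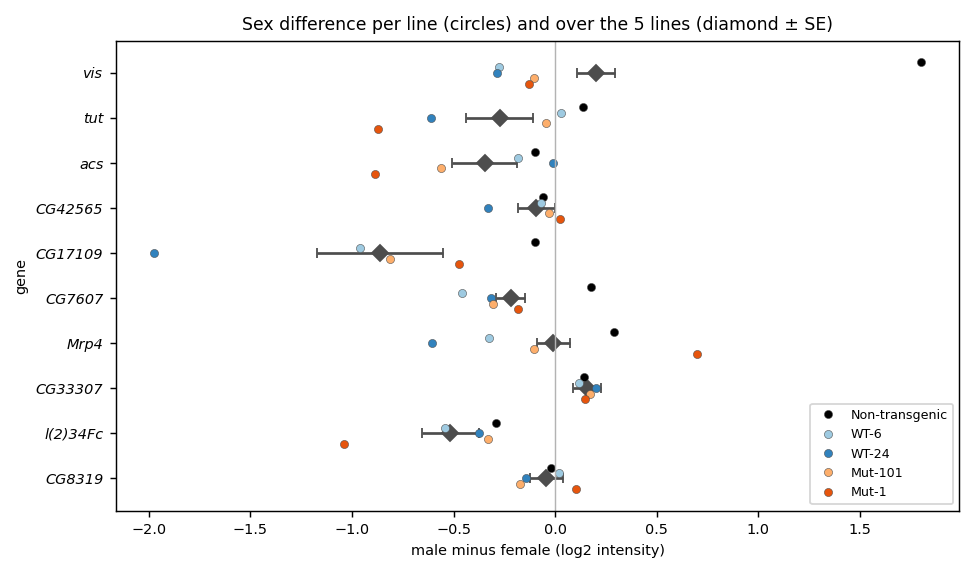
Male minus female difference in log2 intensity for each of the 10 genes, per line (circles, 2 arrays against 2) and over the 5 lines (diamonds, with bars of 1 SE from limma). The Non-transgenic circle of vis lies at 1.80 while its other 4 circles lie between -0.29 and -0.10.

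For vis the line-by-sex test made no call (limma adjusted p = 0.131), though the values per line were unlike. Males were 1.80 above females in Non-transgenic discs, and 0.10 to 0.29 below them in the 4 transgenic lines. Its mean of 0.20 turned to -0.20 without Non-transgenic discs (limma adjusted p = 0.0314), and was 0.27 without Non-transgenic male replicate 2 (adjusted p = 0.0459). For Mrp4, males were 0.70 above females in Mut-1, 0.29 above in Non-transgenic discs and 0.61 below in WT-24. A limma F test of line by sex called 0 of 10262 probe sets (0%), with 557 (5.43%) at an unadjusted p under 0.05. Among the latter were vis and Mrp4, Mrp4 with a limma adjusted p of 0.723. The interaction of vis was called with arrays centred on their medians (adjusted p = 0.0313), without Non-transgenic male replicate 2 (0.0258) and without Non-transgenic female replicate 1 (0.0453), and its adjusted p ranged from 0.0258 to nearly 1 over the alternatives.

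Non-transgenic discs differed among themselves for several of these genes. Replicate 1 was over 1.4-fold above replicate 2 in both sexes for vis, tut, l(2)34Fc and CG8319, which held for 0.400% of the tested probe sets, and a difference of that size in the other direction for 0.351%. The fold was 2.06 in males and 2.43 in females for tut, 1.88 and 1.83 for l(2)34Fc, 1.64 and 1.56 for vis and 1.41 and 1.46 for CG8319. This comparison was made after the values were seen, and the limit of 1.4 lies just under the male fold of CG8319. All 10 genes had a residual SD above the median tested probe set (median 0.22 against 0.10, log2). The shares above are thus not from equally variable probe sets. Replicate numbers are those of the sample titles, and the labels do not say that arrays of 1 number share a culture. The sample descriptions number the female arrays differently. Marker sums of other tissues differed as well, not all in this direction. Muscle markers summed to 6717 and 6040 units in males and 7184 and 2781 in females for replicates 1 and 2. Ring gland markers, with 5 of 9 genes tested, summed to 7691 and 3369 in males and 3497 and 2313 in females. Fat body markers summed to 1857 and 34040 in males and 498 and 1218 in females, and haemocyte markers to 21380 and 28164 in males and 24799 and 16636 in females. Their part in the spread of the 4 genes was not tested.

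**Figure D4:**
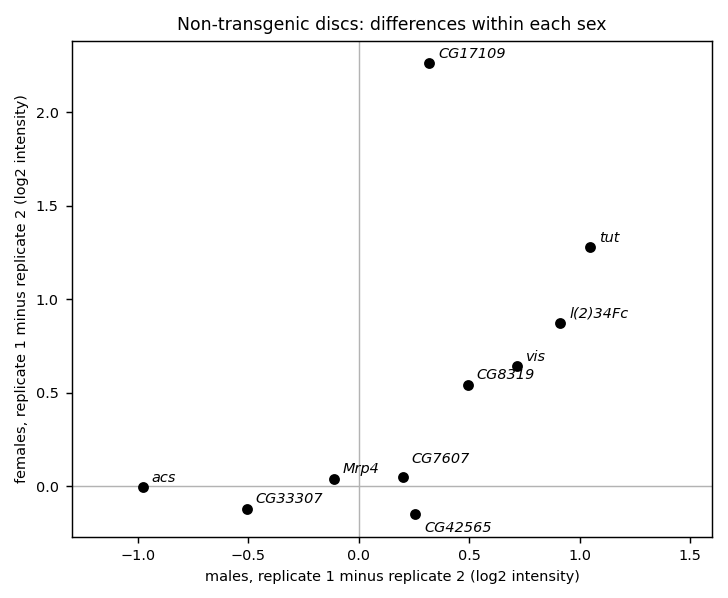
Difference between replicate 1 and replicate 2 of Non-transgenic discs in log2 intensity, males on the horizontal axis and females on the vertical axis, with 1 point for each of the 10 genes. The points of vis, tut, l(2)34Fc and CG8319 are close to equal in both sexes, while CG17109 differs by 2.26 in females and 0.32 in males.

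Neighbouring genes on the chromosome were examined because they were not picked for their levels. The genes lie on arms 2L (CG33307, l(2)34Fc), 2R (vis, CG42565), 3L (tut, acs, CG7607) and 3R (Mrp4, CG17109, CG8319) in the RefSeq annotation. Of the 3 nearest tested genes on each side, 60 in all, 14 (23.3%) were called between lines, beside 14.9% of all tested probe sets. Their line means mostly spanned a small range, with a median of 0.18 on the log2 scale, as over all tested probe sets (0.18). The count depended on the setting. It was 4 of 60 (6.67%, beside 4.92% of all tested probe sets) with arrays centred on their medians and 2 (3.33%, beside 4.55%) with a block on the number in the sample descriptions. Without Mut-1 it was 7 (11.7%, beside 4.29%), without Mut-101 8 (13.3%, beside 10.9%), without WT-6 9 (15%, beside 14.2%) and without WT-6 female replicate 1 also 9 (beside 12.8%). Other settings moved the count less. It was 13 (21.7%, beside 14.6%) without Non-transgenic discs and 11 (18.3%, beside 10.7%) without WT-24. It was also 11 with quantile normalization (beside 13.8%) and with a block on the number in the titles (beside 12.9%). Over 20 arrays the 14 called neighbours correlated with their member at -0.62 to 0.83, 9 above 0 and 5 below.

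The neighbours of CG33307 were called most often, in 4 of 6. CG7916, 3 genes away, was the only neighbour with over 2-fold between lines and, as CG33307, was lowest in WT-6, at 200 ± 22.9 units against 420 ± 14.0 in Mut-101 (SD, n = 4 each, limma adjusted p = 0.00287). It correlated with CG33307 at 0.83 over 20 arrays. CG9427, the gene next to CG8319, was also highest in WT-6, with 5024 ± 327 units against 3593 ± 145 in WT-24 (adjusted p = 0.000297). The tested gene nearest to CG42565, CG4250, lies 2 genes away, was highest in WT-24 and was not called (limma adjusted p = 0.475). On the other side CG30196, 6 genes away, was highest in Mut-101, where it read 812 to 1203 units, overlapping the 408 to 1017 of the other lines (adjusted p = 0.0101). Dscam4, a gene of the Dscam family 8 genes from tut, was lowest in WT-6, while tut was lowest in Mut-1, and ranged 1.41-fold, from 151 ± 15.5 units there to 212 ± 14.5 in Mut-101 (SD, n = 4 each, limma adjusted p = 0.00832). It correlated with tut at 0.71 over 20 arrays. Some other called neighbours shared an extreme line with their member. How often other probe sets share such a line was not counted. CenG1A, the gene next to CG33307, was also highest in WT-24 and lowest in WT-6 (1.24-fold, limma adjusted p = 0.00832, Pearson 0.58). Near acs, sls was also highest in WT-6 and lowest in Mut-1 (1.36-fold, adjusted p = 0.0354, Pearson 0.53). Ublcp1, 5 genes from CG17109, was also lowest in WT-6 (1.18-fold, adjusted p = 0.0237, Pearson 0.52). Others departed from their member. CG7213, 7 genes from tut, was highest in Mut-1, where tut was lowest (1.24-fold, limma adjusted p = 0.0329, Pearson -0.03). Ube3a was lowest in WT-24, where CG7607 was highest, with 2234 ± 54.8 units against 2573 ± 39.9 in Mut-101 (SD, n = 4 each, limma adjusted p = 0.0432, Pearson -0.62). Cow, 3 genes from CG17109, was lowest in Mut-1, at 370 ± 21.2 against 592 ± 73.8 in WT-24 (adjusted p = 0.00252, Pearson -0.22). CG7953, near CG33307, was also lowest in WT-6, at 174 ± 5.49 units (SD, n = 4), but correlated with CG33307 at 0.16 only. Ance, also near CG33307, was lowest in Mut-1 and correlated with it at -0.35. Of the 6 neighbours of l(2)34Fc 0 were called (limma). With 5 on each side CG43333, 15 genes away, was called (1.58-fold, limma adjusted p = 0.0343, Pearson 0.75) and the others were not. Like l(2)34Fc, it was highest in WT-6 and lowest in WT-24. The nearest tested genes on the sides of Mrp4 were fabp, with a 1.13-fold range (adjusted p = 0.00874), and CG5342, with 1.15-fold (adjusted p = 0.281).

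**Figure D5:**
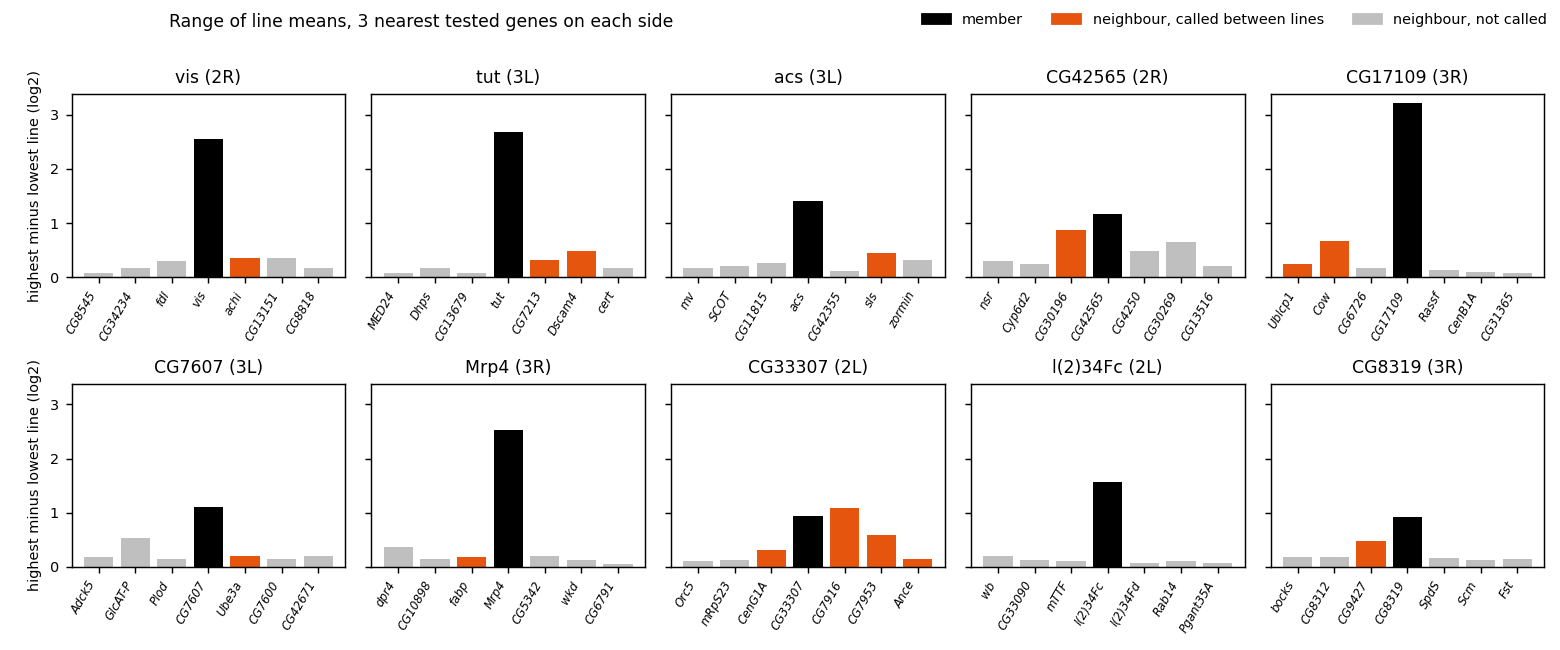
Difference between the highest and the lowest line mean (log2 intensity) for each of the 10 genes (black) and the 3 nearest tested genes on each side, in chromosome order. Orange bars are neighbours called between lines and grey bars are not called. CG7916 beside CG33307 is the only neighbour bar above 1.

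Genes with the most similar pattern over the 20 arrays were named for each gene, with no test. For vis these were the matrix metalloproteinase gene Mmp2 (Pearson 0.90) and the sphingolipid enzyme gene Spt-I (0.90), both on 2R as vis is. Mmp2 was 1146 ± 28.8 units in Mut-1 and 1479 ± 165 to 1763 ± 115 in the other lines (SD, n = 4 each). For tut they were plum (0.89), which encodes a receptor of the immunoglobulin superfamily, and the peroxisome gene Pex3 (0.87). The level of plum was 2789 ± 91.4 in Mut-1, 2950 ± 261 in WT-6 and 3246 ± 256 in Non-transgenic discs, and 4787 ± 259 in WT-24 and 4484 ± 175 in Mut-101. For acs they were Rab32 (0.93) and CG45105 (0.92), for CG42565 Hsdl2 (0.84) and Sf3a1 (0.80), for CG7607 wal (0.89) and CG5708 (0.84), and for CG17109 CG4884 (0.79) and CG14286 (0.78). For CG33307 they were sina (0.94), which acts in the choice of R7 photoreceptor fate, and CtsF (0.92). The level of sina was 2523 ± 125 in WT-6 and 3008 ± 217 to 3342 ± 76.2 in the other lines.

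The most similar genes were also counted by chromosome arm. Of the 20 named genes most like vis, 10 were on 2R, where 20.7% of named tested genes lie. For CG17109 12 of 20 were on 3R (24.4%), for tut 11 of 20 on 3L (19.2%) and for l(2)34Fc 9 of 20 on 2L (17.7%). For CG8319 the number was 7 of 20 on 3R (24.4%). For the other genes the number on their own arm was 4 of 20 for Mrp4, 3 for acs, 2 for CG7607, 2 for CG42565 and 1 for CG33307. NimC1 lay 35 genes from l(2)34Fc and 23 from CG33307 on 2L. These counts were made after the values were seen and describe these 5 lines only.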

How the data were processed

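RNA of eye discs was measured on 20 Affymetrix arrays. For each array, the deposited values are 1 intensity a probe set. The submitters' processing notes name MAS5 with no version, so how the authors scaled the intensity values is not given in the sources used here, and no further scaling was applied. Controls (183 probe sets) were left out. The platform annotation gave 13647 probe sets with 1 gene, 402 with several and 4720 with none. Symbols and chromosome order came from the RefSeq table (assembly Release 6 plus ISO1 MT), and coordinates are not given because the files name no build. Each gene kept its probe set of highest mean, and the upper 60% of 17104 by mean log2 intensity were tested, with a lowest geometric mean of 158 units. All tests used limma 3.58.1 in R 4.3.3 with 1 mean per line and sex, eBayes with a trend (10 residual and 3.19 prior degrees of freedom), lines or sexes weighted equally, and Benjamini-Hochberg adjustment over 10262 probe sets. P-values rest on the spread of 2 arrays within each line and sex, not on that among insertion lines, and the number of arrays limits the precision. The code was tested on simulated data. The genes, gene lists and comparisons were chosen with earlier results of these data known. Named were all 10 genes, for each the 2 most similar genes, neighbours called and over 2-fold, and up to 4 genes a related list by smallest p. Other neighbours, MRP and the tissue markers were named after their values were seen. Paralogues were not compared, as no protein table was used.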

Additional observations from a re-analysis of the deposited data

Results flagged for a closer look

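CG33307 in Mut-101 had 1 array apart from the others. Male replicate 2 read 401 units, while the other 3 arrays lay between 324 and 336, and the gap was 0.843 of the range of the 4 arrays. It was 1 of 50 groups of 4 arrays examined (10 genes in 5 lines), and chance places about 1 in 20 groups past this limit.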

How the results depend on the processing

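Differences of the 10 genes between lines kept their direction where called. With 50 units added the log2 difference between extreme lines was smaller for all 10 genes. It was 1.95 against 2.56 for vis, 2.09 against 2.54 for Mrp4 and 1.09 against 1.41 for acs. For CG17109 it was 2.79 against 3.22, and for tut 2.38 against 2.68. Counts over all genes moved more, and the cause was not tested. With arrays centred on their medians, 505 probe sets were called between the 5 lines, 43 between the wild-type lines, 180 between the C96Y lines, 715 between the sexes (100 higher and 615 lower in males, against 796 and 468), 3 for line by sex and 4 of 60 neighbours. That centring moved the median sex difference from 0.02 to -0.08. Quantile normalization gave 830 for sex (310 higher, 520 lower) and 1 for line by sex, the upper 40% of probe sets 576 and 1, and no filter 3 for line by sex. The upper 40% held only some of the 10 genes, and the others have no value there. Replicate numbers did not pair the samples: over 45 pairs of groups their deviations correlated at -0.47 to 0.29, and 14 were over 0.1. A block on the number in the titles gave 11 of 60 neighbours and moved no count past 1.5 times. A block on the number in the descriptions gave 467, 2, 5, 366, 2 and 2 for the same 6 counts in the order above. Without Mut-1, 440 were called between lines. For sex, 734, 463, 663 and 645 were called without WT-6, WT-24, Mut-101 and Mut-1, and 711 without the 2 arrays with the highest fat body sums, a choice made after seeing the data. For neighbours, 9, 8 and 7 were called without WT-6, Mut-101 and Mut-1, and 23 of 100 with 5 on each side. Leaving out 1 array gave 956 to 1636 between lines, 59 to 103 and 167 to 489 for the wild-type and C96Y pairs, 710 to 1516 for sex, 0 to 3 for line by sex and 9 to 17 neighbours. The sex differences of Mrp4 and CG8319, never called, turned sign: Mrp4 was 0.014 with 50 units added, 0.069, 0.14 and 0.014 without WT-6, WT-24 and Mut-101, and -0.065 to 0.047 without single arrays, and CG8319 was 0.020 without the 2 fat body arrays and -0.10 to 0.012 without single arrays. For vis it was -0.20 without Non-transgenic discs. For l(2)34Fc it was -0.46 (limma adjusted p = 0.0640) without the 2 fat body arrays. No detection calls were used, so folds against low levels are approximate.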
